A study of Homo sapiens with 4 samples.

Results

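The class I antigen presentation genes were followed in SUM159, an established mesenchymal triple-negative breast cancer cell line, under palbociclib, indisulam and both drugs. Palbociclib blocks CDK4 and CDK6, the kinases that release cells from the retinoblastoma checkpoint. Indisulam, a sulfonamide, brings the splicing factor RBM39 to the DCAF15 ubiquitin ligase, which leads to loss of the RBM39 protein. There were 4 libraries of poly(A) RNA, untreated, palbociclib, indisulam and the combination, with 1 library per condition. The labels give 0.5 µM palbociclib and 2 µM indisulam for 10 days, as the paper does for its senescence gene sets in SUM159. The text on the series gives 2 µM palbociclib and 3 µM indisulam for 16 h in technical duplicates, as the paper does for its splicing errors. As the labels and the series text conflict, dose and time could not be settled from them. The question was whether the class I genes, which CDK4/6 inhibition is known to raise in tumour cells, were higher with palbociclib here and whether indisulam did the same.

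The genes were taken by name. They were HLA-B, HLA-C, HLA-E, HLA-F, B2M, TAP1, TAP2, TAPBP and NLRC5, 9 of the 60279 genes listed, and all 9 were among the 14269 genes with a mean of at least 1 CPM that were tested. CPM is the read count of a gene per 1000000 reads in genes of the same library.

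Class I molecules show peptides from inside the cell to CD8 T cells. A heavy chain pairs with the light chain beta-2 microglobulin in the endoplasmic reticulum, where the TAP transporter delivers peptides cut by the proteasome and the chaperone tapasin holds the heavy chain near it until a peptide is bound. The genes are switched on together by interferon through factors such as IRF1, and by the regulator NLRC5, which acts at their promoters through the RFX, CREB and NF-Y factors. Tumour cells often keep these genes low, and drugs that raise them have been of interest for that reason.

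The promoters of 5 members are shown because they differ in exact matches to the forms searched here for interferon, NF-kB and NF-Y. They also differ in level, as HLA-B, HLA-C, HLA-F and B2M were highest in the palbociclib library and TAP2 in the combination library. Each sequence is the 250 bases before the RefSeq transcription start in GRCh38.p14, read 5′ to 3′ on the strand of the gene. Capitals mark a pair of GAAA with any 2 bases between them (the core of an interferon response element), 2 forms of the NF-kB site and CCAAT (the NF-Y box), each searched on both strands, and matches that overlap run together. The class I enhancer form of the NF-kB site was read as GGG, any base, ATT, any base, CC, and the RelA form as GGG, any 2 bases, TTTCC. The letters are those of the reference and not of the alleles of the cell line.
HLA-B, minus strand, chr6:31357180-31357429: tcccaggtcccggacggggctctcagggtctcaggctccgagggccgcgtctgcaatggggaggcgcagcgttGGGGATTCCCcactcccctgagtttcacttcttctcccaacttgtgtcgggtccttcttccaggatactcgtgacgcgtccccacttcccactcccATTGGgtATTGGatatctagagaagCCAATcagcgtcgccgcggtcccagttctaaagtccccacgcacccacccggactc
HLA-C, minus strand, chr6:31272093-31272342: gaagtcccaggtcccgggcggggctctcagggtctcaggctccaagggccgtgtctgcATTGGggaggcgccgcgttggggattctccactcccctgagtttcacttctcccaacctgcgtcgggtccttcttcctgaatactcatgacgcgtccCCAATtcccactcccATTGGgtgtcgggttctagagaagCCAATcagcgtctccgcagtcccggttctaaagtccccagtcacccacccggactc
HLA-F, plus strand, chr6:29723184-29723433: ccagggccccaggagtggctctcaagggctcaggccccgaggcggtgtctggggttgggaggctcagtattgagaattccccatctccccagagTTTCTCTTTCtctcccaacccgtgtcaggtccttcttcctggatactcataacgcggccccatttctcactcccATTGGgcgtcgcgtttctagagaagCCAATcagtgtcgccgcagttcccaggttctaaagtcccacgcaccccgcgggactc
B2M, plus strand, chr15:44711267-44711516: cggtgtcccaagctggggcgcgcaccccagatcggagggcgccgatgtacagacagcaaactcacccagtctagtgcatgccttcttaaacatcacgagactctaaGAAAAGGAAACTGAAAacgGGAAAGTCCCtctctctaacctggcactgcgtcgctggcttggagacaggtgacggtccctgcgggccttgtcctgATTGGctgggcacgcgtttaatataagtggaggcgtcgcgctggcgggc
TAP2, minus strand, chr6:32838740-32838989: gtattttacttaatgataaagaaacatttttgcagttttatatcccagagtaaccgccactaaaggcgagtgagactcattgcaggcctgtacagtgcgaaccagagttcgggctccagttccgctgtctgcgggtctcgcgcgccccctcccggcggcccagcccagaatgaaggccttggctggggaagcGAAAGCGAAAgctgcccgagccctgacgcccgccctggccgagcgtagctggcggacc

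The interferon core was found in HLA-F, B2M and TAP2 of the promoters shown, and also in TAP1 and TAPBP. It was present in 3.02% of the 35116 RefSeq promoters of the same length. The class I enhancer form of the NF-kB site was found in HLA-B and TAPBP, against 0.809% of all promoters, and the RelA form in B2M, TAP1 and TAPBP, against 1.73%. The single GGGGATTTCC of TAPBP matches both forms. CCAAT was found in HLA-B, HLA-C, HLA-F, B2M and TAP1, against 32.0% of all promoters, and in the heavy chains it occurred more than once. In TAP2, neither CCAAT nor either NF-kB form was found in these 250 bases. TGACG, a part of the cAMP response element and not in capitals, was found in HLA-B, HLA-C, B2M and TAP2, against 21.2%. A match only describes the letters. Only exact matches to these forms were counted, so a promoter without a match may still hold a variant of the element. The promoter table held 7 of the 9 members and did not list HLA-E and NLRC5. For TAP1 it held 2 promoters. The matches given for TAP1 are all from the same promoter, and the other had no match to any form searched. By GENCODE release 44, none of the TAP2 window lies in an exon of TAP2, whereas 114 of the 250 bases of the HLA-B window, 38 of HLA-C, 128 of HLA-F and 113 of B2M lie in exons of longer transcripts of the same gene.

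Together the 9 genes took 0.438% of the gene reads of the untreated library, 0.575% of the palbociclib library, 0.461% of the indisulam library and 0.407% of the combination library. Palbociclib alone therefore had the largest share of the 4 libraries and the combination the smallest. Per exonic length, as CPM per kilobase of exon (RPKM), the order in untreated cells was B2M at 681, HLA-E at 204, HLA-B at 181 and HLA-C at 128. TAP1 at 31.4 and TAPBP at 31.3 were side by side, and HLA-F at 8.97, NLRC5 at 7.14 and TAP2 at 1.69 followed. The light chain thus led the list and the transporter subunit TAP2 closed it. TAP2 was also last in the combination library, at 4.75 RPKM, although by then NLRC5 was at 6.76 RPKM and HLA-F at 7.52 RPKM. By RPKM, HLA-E was above HLA-B and HLA-C in untreated cells. In the combination library, at 113 RPKM, it was below HLA-B at 167 RPKM and HLA-C at 123 RPKM. This order depends on the lengths used. By CPM, HLA-E was below HLA-B in untreated cells, at 595 against 837, and above HLA-C in the combination library, at 331 against 309. DHFRP2, an overlapping pseudogene on the same strand, shares 30.7% of the exonic length of HLA-B, whose RPKM may therefore be too low. The RPKM of TAP2 may be too low as well, because a same-strand gene shares 19.5% of its exonic length. Its last place in the combination library is therefore uncertain.

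Log2 ratios were taken between libraries scaled to the same depth. A gene was called when it differed at least 2-fold and its 95% interval excluded 0. These intervals cover counting error only, there were no replicates and no test was run. In place of replicates, the 2 by 2 layout gives each drug effect in a pair of comparisons that share no library. The spread of the departure from additivity, explained further on, gives a rough ceiling for the standard deviation (SD) of a log2 ratio of a typical gene, 0.26 at 20 to 100 CPM and 0.28 above 100 CPM.

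Palbociclib alone called none of the 9 genes at 2-fold, where 5.85% of all tested genes were called higher and 4.89% lower, 10.7% in all. The 9 log2 ratios ran from -0.19 for HLA-E to 0.86 for TAP2, with a median of 0.49, and the median of all tested genes was -0.02. The interval lay above 0 for HLA-B, HLA-C, HLA-F, B2M and TAP2, 5 of 9, against 28.4% of all tested genes. It lay below 0 for HLA-E and TAP1, against 31.7%. The median was 0.24 without TAP2, but this is not particular to TAP2. The 4 ratios below 0 ended at -0.00 for NLRC5, and the 5 above 0 began at 0.49 for HLA-F. Leaving out any of these 5 genes moves the median into that gap. HLA-C and TAP2 were more than 2 of the ceiling SDs away from 0, and the other 7 genes were not.

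The classical heavy chains HLA-B and HLA-C, which present peptides to CD8 T cells, had one pattern. HLA-B (ENSG00000234745, chr6:31353872-31367067, minus strand) had 837 CPM in untreated cells, 1224 with palbociclib, 892 with indisulam and 770 with the combination. HLA-C (ENSG00000204525, chr6:31268749-31272130, minus strand) had 321, 479, 302 and 309 CPM in the same order. In both genes the palbociclib library stood apart from the other three. HLA-B was 1.46-fold higher with palbociclib than without treatment, a log2 ratio of 0.55 (0.51 to 0.58). HLA-C was 1.49-fold higher, a log2 ratio of 0.58 (0.52 to 0.63). Among the 2001 genes of at least 100 CPM, these ratios were at the 91.3 and 92.1 percentile. With indisulam the log2 ratios to untreated were 0.09 for HLA-B and -0.09 for HLA-C, and with the combination they were -0.12 and -0.06.

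HLA-C had at least 4029 reads and HLA-B at least 10505 reads in every library, so the counting error was small. The reads were less certain in their origin. Of the windows of 65 bases, the shorter of the read lengths that the study states, 42.0% in the HLA-B transcripts also lay in transcripts of other genes, nearly all in DHFRP2, an overlapping pseudogene on the same strand with at most 1 read in any library. Shared windows were 2.54% for HLA-C, 3.50% for HLA-E and 0.754% for HLA-F. Reads placed more than once were left out of the gene counts. On chromosome 6 these reads numbered 5798 for every 1000000 gene reads in untreated cells, 6600 under palbociclib, 6243 under indisulam and 5255 under both drugs, the palbociclib library being highest here too. Reads that overlapped more than 1 gene were left out as well. On chromosome 6 they numbered 2094, 1996, 1952 and 1789 for every 1000000 gene reads in the same order, highest in untreated cells. The part of both kinds of read in the result was not tested. Neither was the loss of reads from alleles of the line that differ from the reference.

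HLA-E, which is recognized by NKG2A and NKG2C on natural killer cells, went the other way. HLA-E (ENSG00000204592, chr6:30489509-30494194, plus strand) had 595 CPM in untreated cells, 521 with palbociclib, 396 with indisulam and 331 with the combination. Every treated library was below untreated, and the combination was lowest. Against untreated, palbociclib gave a log2 ratio of -0.19 (-0.24 to -0.14), indisulam -0.59 (-0.64 to -0.54) and both drugs -0.84 (-0.90 to -0.79). The last is 1.80-fold lower and did not reach the 2-fold needed for a call. HLA-F, a nonclassical heavy chain at a low level, resembled HLA-B. HLA-F (ENSG00000204642, chr6:29722775-29738528, plus strand) had 38.7, 54.4, 45.8 and 32.5 CPM in the untreated, palbociclib, indisulam and combination libraries. Against untreated, palbociclib gave HLA-F a log2 ratio of 0.49 (0.32 to 0.66), indisulam 0.24 (0.08 to 0.41) and both drugs -0.25 (-0.44 to -0.07). HLA-F-AS1, which overlaps it on the opposite strand, had 56 to 79 reads against 466 to 766 for HLA-F.

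**Figure D1:**
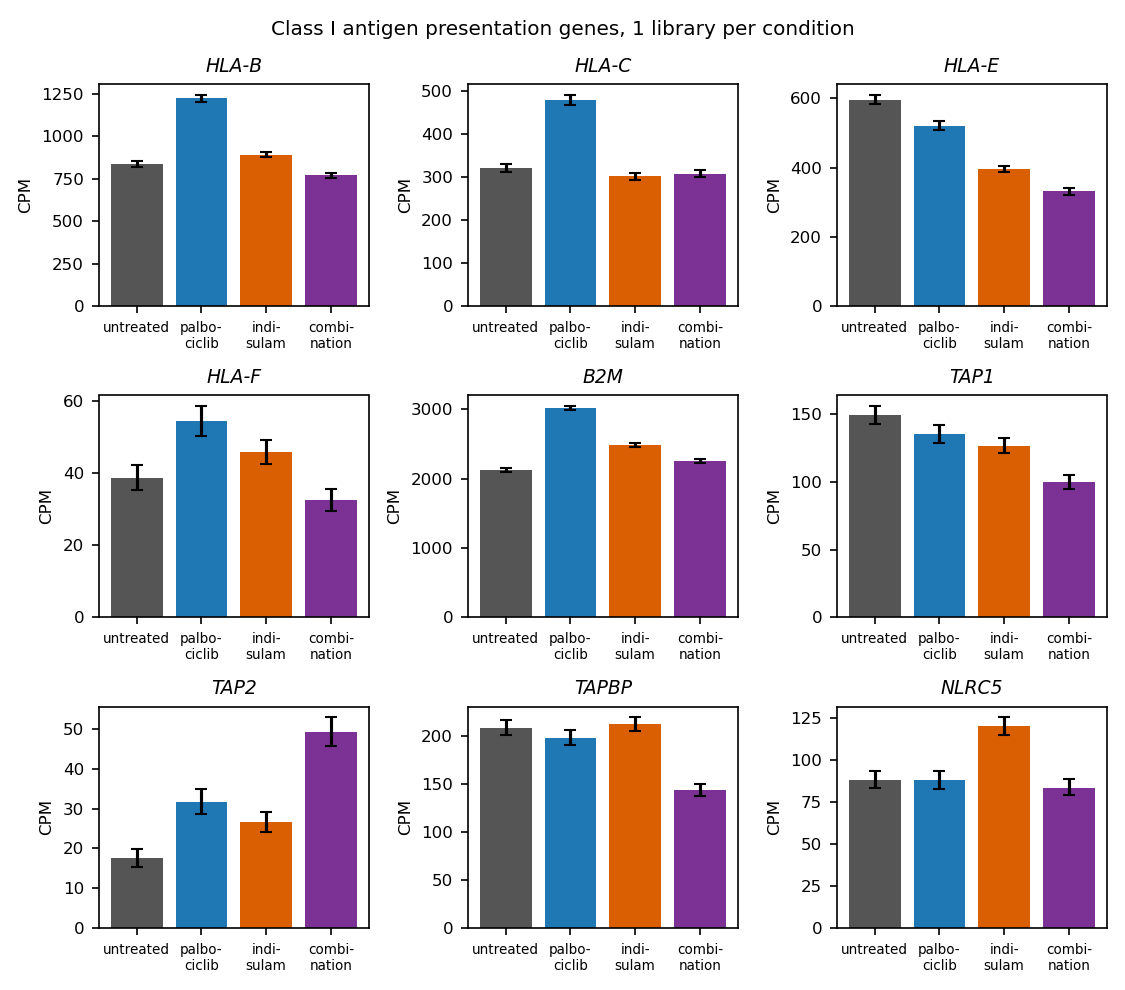
Level of each of the 9 class I genes in CPM on a linear axis from 0, with 1 bar per library and a 95% exact Poisson interval for counting error. HLA-B, HLA-C, HLA-F and B2M were highest in the palbociclib library, TAP2 was highest in the combination library at 49.2 CPM, and HLA-E and TAP1 were highest in untreated cells.

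B2M, the light chain of all class I molecules, was the most abundant member. B2M (ENSG00000166710, chr15:44711358-44718851, plus strand) had 2125 CPM in untreated cells, 3018 with palbociclib, 2485 with indisulam and 2255 with the combination. Against untreated, the log2 ratio of B2M was 0.51 (0.48 to 0.53) under palbociclib, 0.23 (0.20 to 0.25) under indisulam and 0.09 (0.06 to 0.11) under both drugs. B2M has its gene on chromosome 15, outside the MHC region, and none of its windows of 65 bases was shared with another gene. As for HLA-B and HLA-F, its level was highest with palbociclib and next highest with indisulam. The small excess of the combination over untreated was lost with another depth scaling (TMM), which gave -0.01.

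The subunits of the peptide transporter differed in direction. TAP1 (ENSG00000168394, chr6:32845209-32853816, minus strand) had 149 CPM in untreated cells, 135 with palbociclib, 127 with indisulam and 99.7 with the combination. TAP2 (ENSG00000204267, chr6:32821833-32838739, minus strand) had 17.5, 31.8, 26.6 and 49.2 CPM in the same order. TAP1 was thus lowest, and TAP2 highest, in the combination library. Against untreated, TAP1 had log2 ratios of -0.14 (-0.23 to -0.04) under palbociclib, -0.23 (-0.32 to -0.14) under indisulam and -0.58 (-0.68 to -0.48) under both drugs. TAP2 had log2 ratios of 0.86 (0.62 to 1.09), 0.60 (0.37 to 0.83) and 1.48 (1.27 to 1.70). With the combination TAP2 rose 2.80-fold, from 220 to 706 reads at different depths, which was the only call among the 9 genes in any of the 5 comparisons. Scaling did not alter this call, and the log2 ratio was 1.39 to 1.47 under the alternatives.

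TAP2 shares 2023 exonic bases, 19.5% of its exonic length, with a read-through gene on the same strand (ENSG00000250264) that had 0 reads in every library, and 29.8% of its windows of 65 bases were shared. Reads in the shared part could be assigned to neither gene, so the level of TAP2 counts part of its RNA. The counts do not separate transcript forms, and whether the difference lay in 1 form of TAP2 was not tested.

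Tapasin, which bridges TAP and the heavy chain, was below untreated only when both drugs were present. TAPBP (ENSG00000231925, chr6:33299694-33314284, minus strand) had 208 CPM in untreated cells, 198 with palbociclib, 212 with indisulam and 144 with the combination. The log2 ratio of the combination to untreated was -0.54 (-0.62 to -0.45), and the intervals of both single drugs included 0. The sign of the indisulam ratio, 0.03, turned with the scaling. NLRC5 (ENSG00000140853, chr16:56989485-57083531, plus strand), the activator of class I transcription, was set apart by the indisulam library. It had 88.5 CPM in untreated cells, 88.2 with palbociclib, 120 with indisulam and 83.8 with the combination. Indisulam alone was 1.36-fold above untreated, a log2 ratio of 0.44 (0.34 to 0.55). The palbociclib library, in which HLA-B, HLA-C and B2M were highest, had the same level of NLRC5 as untreated within counting error, with a log2 ratio of -0.00 (-0.12 to 0.12), whose sign turned with the scaling.

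Indisulam alone called none of the 9 genes, against 8.39% of all tested genes called higher and 6.69% lower, 15.1% in all. The interval was above 0 for HLA-B, HLA-F, B2M, TAP2 and NLRC5, 5 of 9, against 36.8% of all tested genes. It was below 0 for HLA-C, HLA-E and TAP1, against 29.8%. The median over the 9 genes was 0.09, near the 0.06 of all tested genes, and was 0.02 to 0.03 with other scalings. HLA-B was no longer clear of 0 with those scalings, which left 4 genes above 0. Only HLA-E and TAP2 were more than 2 ceiling SDs from 0.

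The combination called TAP2 only, 1 of 9, where 12.9% of all tested genes were called higher and 10.5% lower, 23.5% in all. The interval was above 0 for B2M and TAP2, against 39.2% of all tested genes. It was below 0 for HLA-B, HLA-E, HLA-F, TAP1 and TAPBP, 5 of 9, against 34.1%, and HLA-C and NLRC5 included 0. The median over the 9 genes was -0.12, against 0.05 over all tested genes. HLA-E, TAP1 and TAP2 were more than 2 ceiling SDs from 0. With the combination, then, 1 member had risen and the others lay between -0.84 and 0.09.

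The effect of palbociclib can be read a second time as combination against indisulam. This called none of the 9 genes, against 5.04% of all tested genes called higher and 3.15% lower, 8.19% in all. The interval was above 0 for TAP2 alone, against 29.9% of all tested genes, and below 0 for 7 genes, against 31.1%. The median was -0.26, against -0.01 over all tested genes. HLA-B had a log2 ratio of 0.55 without indisulam and -0.21 (-0.25 to -0.18) with it. B2M had 0.51 without indisulam and -0.14 (-0.16 to -0.12) with it, and HLA-F had 0.49 and -0.50 (-0.66 to -0.33). HLA-C had 0.58 without indisulam and 0.03 (-0.03 to 0.09) with it. The excess of these 4 genes with palbociclib alone was thus not seen when palbociclib was added to indisulam. TAP2 gave nearly the same value in both pairs, 0.86 and 0.88 (0.71 to 1.05), and HLA-E gave -0.19 and -0.26 (-0.31 to -0.20).

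The effect of indisulam can be read in the same way as combination against palbociclib. This called none of the 9 genes either, against 9.56% of all tested genes called higher and 7.38% lower, 16.9% in all. The interval was below 0 for 7 genes, against 28.6% of all tested genes, and above 0 for TAP2, against 37.3%. The median was -0.46, against 0.07 over all tested genes. HLA-B had a log2 ratio of 0.09 with indisulam alone and -0.67 (-0.70 to -0.63) where palbociclib was present. HLA-F had 0.24 and -0.75 (-0.91 to -0.58), and B2M had 0.23 and -0.42 (-0.44 to -0.40). HLA-B, HLA-C, HLA-E, HLA-F and TAP2 were more than 2 ceiling SDs from 0 in this comparison, the most of the 5 comparisons. HLA-E gave similar values in both pairs, -0.59 and -0.65 (-0.71 to -0.60), as did TAP2 with 0.60 and 0.63 (0.45 to 0.81).

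**Figure D2:**
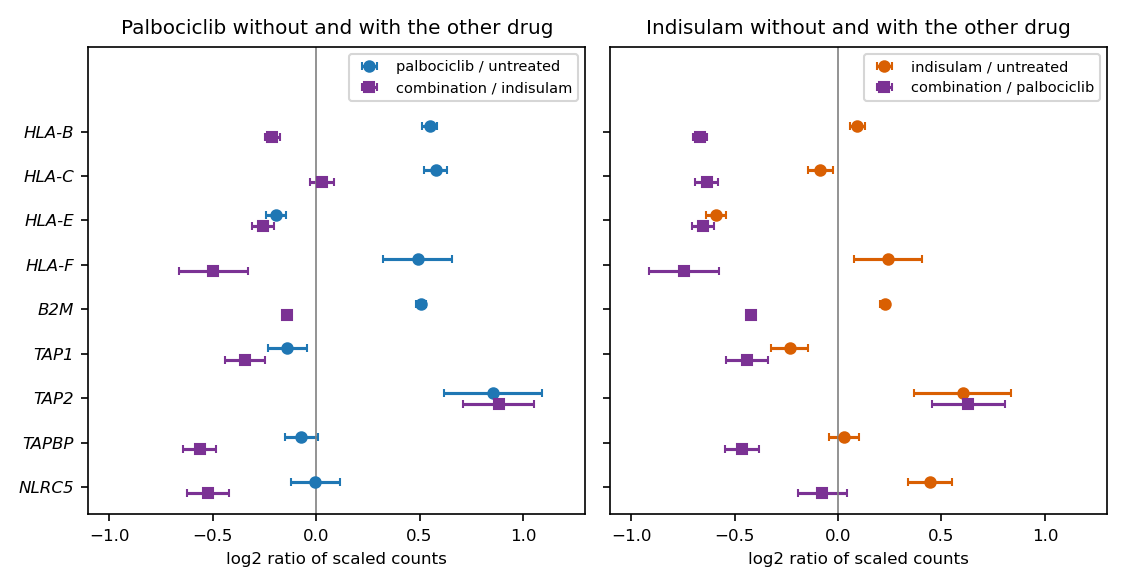
Log2 ratio of scaled counts for each gene, with 95% counting intervals, for palbociclib without (circles) and with (squares) indisulam on the left, and for indisulam without and with palbociclib on the right. The circles and squares of HLA-B, HLA-F and B2M lie on opposite sides of 0 in both panels, whereas those of TAP2 lie at 0.86 and 0.88 on the left and at 0.60 and 0.63 on the right.

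The departure from additivity puts these pairs into 1 value per gene, the log2 ratio of the combination to untreated minus the sum of both single-drug ratios. It was -0.99 (-1.22 to -0.75) for HLA-F, -0.76 (-0.81 to -0.71) for HLA-B, -0.65 (-0.68 to -0.62) for B2M and -0.55 (-0.63 to -0.47) for HLA-C. It was -0.52 (-0.68 to -0.36) for NLRC5, -0.49 (-0.60 to -0.38) for TAPBP and -0.21 (-0.34 to -0.07) for TAP1. These 7 genes had less RNA with both drugs than the sum of the single drugs gives. HLA-E at -0.06 (-0.14 to 0.01) and TAP2 at 0.03 (-0.26 to 0.32) included 0, so TAP2 with both drugs was at the sum. None of the 9 departed from the sum by 2-fold or more, against 3.93% of all tested genes above it and 3.84% below it. An interval below 0 was found for 22.7% of all tested genes and one above 0 for 23.1%. The median was -0.52 over the 9 genes and 0.01 over all tested genes.

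The robust SD of this departure over genes was 0.37 at 20 to 100 CPM and 0.40 above 100 CPM. It holds the noise of 4 libraries and any interplay of the drugs, and divided by the square root of 2 it gave the ceilings above. HLA-F was the only member more than 2 of these SDs below 0. HLA-F stood at the 1.71 percentile of the 6036 genes of 20 to 100 CPM. HLA-B stood at the 4.40 percentile and B2M at the 6.70 percentile of the genes above 100 CPM. All 4 libraries enter the departure of every member, so that 1 library with unusual levels would shift several members at once. With 1 library per condition this cannot be told apart from an effect of the drugs.

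**Figure D3:**
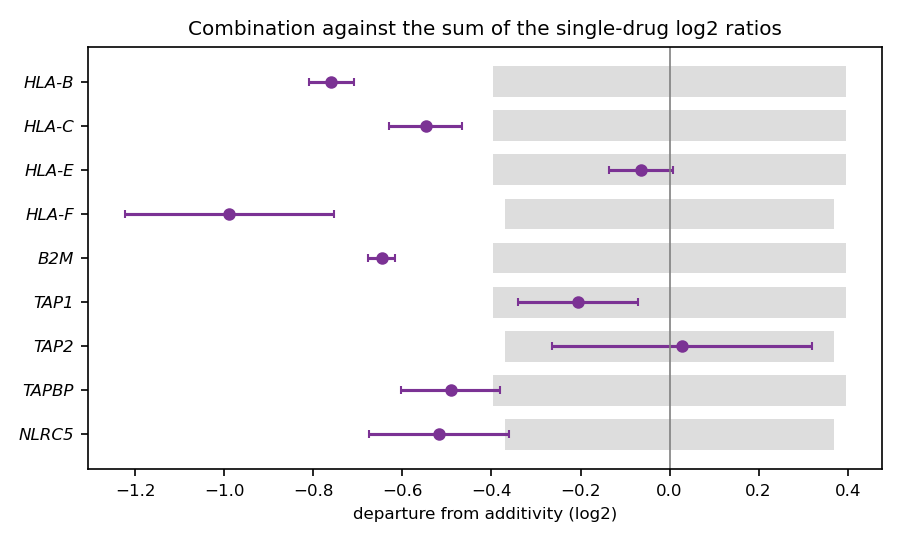
Departure from additivity of each gene on the log2 scale with its 95% counting interval, over a grey band of 1 robust SD either side of 0 among tested genes of like level. HLA-F at -0.99, HLA-B at -0.76 and B2M at -0.65 lie left of the band, and TAP2 at 0.03 and HLA-E at -0.06 lie within it.

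The genes whose 3 ratios to untreated came nearest to the median profile of the 9 members were looked up among 8028 genes of at least 20 CPM. They were HSPA1B at a distance of 0.03, XIST at 0.03, PCSK6 at 0.05, AMER1 at 0.07 and ZNF37BP at 0.08, in log2 units over 3 comparisons. HSPA1B, a heat shock protein gene that itself lies in the MHC region, has a near-identical copy and its count is uncertain. None of the 5 is a gene of antigen presentation, and the likeness rests on 4 libraries.

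The genes around the pathway were taken as 11 lists of 76 genes, of which 69 were tested. Of the peptide loading chaperones, which fold the heavy chain and edit its peptide, 1 of 5 was called with palbociclib and none with indisulam or the combination against untreated, beside the 10.7%, 15.1% and 23.5% of all tested genes. The called gene was TAPBPL, which encodes the peptide editor TAPBPR. It had 13.5 CPM in untreated cells, 36.3 with palbociclib, 20.2 with indisulam and 19.6 with the combination. The palbociclib library was far above the other three, with a log2 ratio to untreated of 1.42 (1.17 to 1.67). The departure of TAPBPL was -1.47 (-1.81 to -1.13), further from 0 than that of any member.

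None of the 5 peptide trimming genes, the 6 immunoproteasome genes or the 3 constitutive proteasome counterparts was called in any of the 5 comparisons, in which 8.19% to 23.5% of all tested genes were. With so few genes in each list, nothing is read from this. The immunoproteasome subunits PSMB8 and PSMB9 lie beside TAP1 and are raised by the same interferon signals. PSMB8 had 1372, 1165, 1162 and 934 reads in the untreated, palbociclib, indisulam and combination libraries, and PSMB9 had 691, 615, 678 and 612. Neither was higher in read number with palbociclib than without treatment. The 4 repressor genes (EZH2, EED, SUZ12 and DNMT1), whose products silence class I genes in some tumours, had no call either, and this list is as short.

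Of 12 genes of interferon signalling to class I, none was called with palbociclib, 4 rose with indisulam and 1 rose and 1 fell with the combination. Of all tested genes, 10.7% were called with palbociclib, 8.39% rose with indisulam, and 12.9% rose and 10.5% fell with the combination. IRF1, a transcription factor at class I promoters, had 251, 494, 711 and 729 reads in the untreated, palbociclib, indisulam and combination libraries. Scaled to depth, IRF1 was highest with both drugs, where HLA-B and HLA-F were lowest. In the treated libraries its log2 ratios were 0.96 (0.74 to 1.18), 1.09 (0.88 to 1.29) and 1.34 (1.13 to 1.55), and the last 2 were called. JAK2, the kinase of the interferon-gamma receptor, had 26.1, 28.6, 67.4 and 45.8 CPM and rose with indisulam, with a log2 ratio of 1.36 (1.19 to 1.54). IRF9 also rose with indisulam, from 17 to 52 reads, and so did SOCS1, a feedback inhibitor, at a log2 ratio of 1.00 that was under 2-fold with each other scaling. STAT2, the partner of IRF9, had 2502, 2814, 2133 and 1364 reads and fell by 1.07 on the log2 scale with the combination.

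Of the 8 factors that bind the shared promoter elements or replace NLRC5 there, CIITA rose and RFXANK fell with the combination, and none was called with either single drug. These 2 of 8 are near the 23.5% of all tested genes called with the combination. CIITA, the class II counterpart of NLRC5, had 21, 35, 36 and 53 reads in the 4 libraries. RFXANK, a subunit of RFX, had 34.6, 28.8, 23.5 and 16.4 CPM, and its log2 ratio for the combination was -1.07 (-1.30 to -0.84). NFYB, a subunit of NF-Y, was called only as lower in the combination than with palbociclib, at -1.21 (-1.35 to -1.07), from 99.9 to 43.1 CPM. Of the 4 NF-kB subunits, NFKB2 and RELB rose with indisulam, as did 8.39% of all tested genes. NFKB2 had 38.1, 46.5, 86.5 and 73.5 CPM and RELB 16.6, 19.0, 37.9 and 23.5 CPM. Both were highest with indisulam, where the classical heavy chains were near the untreated level.

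Of the 9 genes that sense double-stranded RNA or answer it, 5 were tested. RIGI, a cytosolic sensor, had 8.84, 17.5, 36.1 and 47.8 CPM and rose with indisulam, at 2.02 (1.73 to 2.31), and with the combination, at 2.42 (2.14 to 2.71). DHX58, a relative of RIGI, had 365, 191, 321 and 161 reads and fell by 1.37 with the combination on the log2 scale. The interferon genes IFNB1, IFNL1, IFNL2 and IFNL3 had 0 reads in every library, which allows up to 0.239 CPM in the shallowest library.

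**Figure D4:**
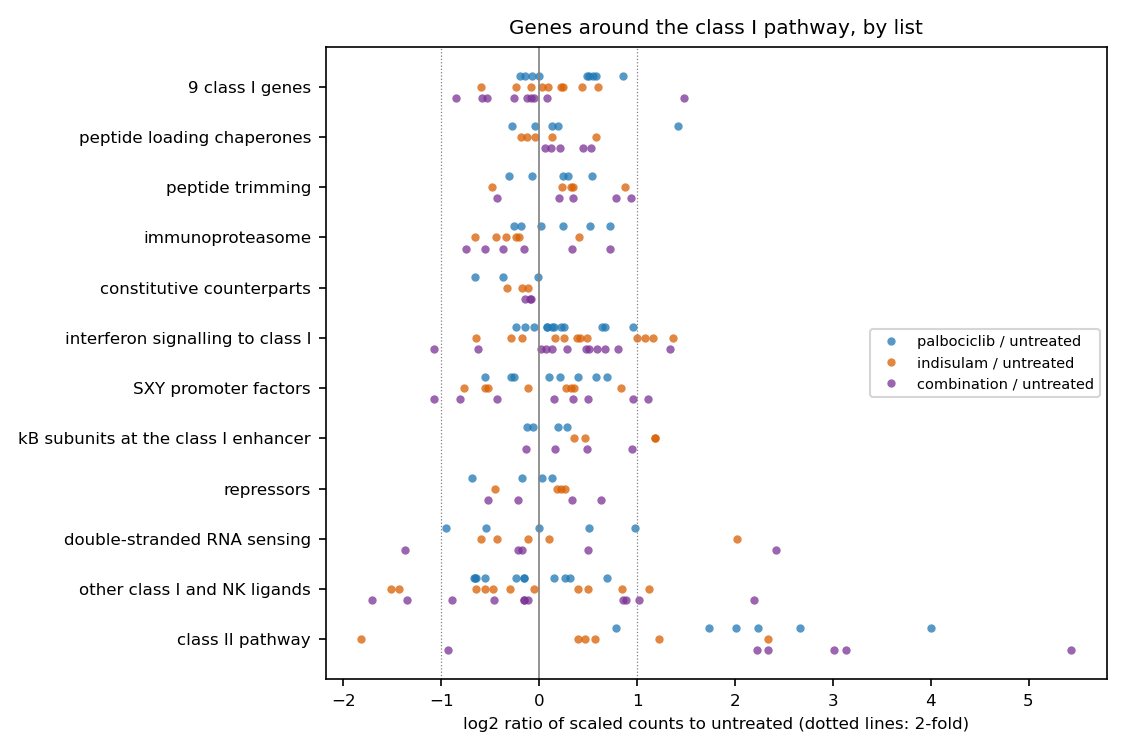
Log2 ratio to untreated of each tested gene, in 1 line per list, for palbociclib, indisulam and the combination, with dotted lines at 2-fold. The 9 class I genes lie between -0.84 and 0.86 except for TAP2 with the combination at 1.48, while class II genes, plotted from few reads, reach 5.44 and RIGI reaches 2.42.

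Among 11 other class I genes and ligands of natural killer receptors, none was called with palbociclib, 1 rose and 2 fell with indisulam, and 2 rose and 2 fell with the combination. Of all tested genes, 10.7% were called with palbociclib, 15.1% with indisulam and 23.5% with the combination. ULBP2, a ligand of the activating receptor NKG2D, had 4.14, 3.70, 9.10 and 19.2 CPM, and rose with the combination, at 2.20 (1.77 to 2.62). MICB, also an NKG2D ligand, rose with the combination at 1.02 (0.81 to 1.24), which fell under 2-fold with each other scaling. HFE, a heavy chain that pairs with B2M and acts in iron control, had 535, 343, 249 and 187 reads and was called lower with indisulam and with the combination, at -1.70 (-1.94 to -1.47) for the latter. FCGRT, the heavy chain of the neonatal Fc receptor and also a partner of B2M, fell by 1.35 with the combination on the log2 scale. RAET1G was called lower with indisulam, from 36 to 17 reads at different depths. HLA-G had 51, 84, 43 and 31 reads, with the palbociclib library highest as for HLA-B and HLA-F, and was called only as lower in the combination than with palbociclib.

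The class II genes, which present peptides to CD4 T cells and are driven by CIITA, were low but had the widest differences. HLA-DRA had 3 reads in untreated cells, 62 with palbociclib, 25 with indisulam and 192 with the combination. Its ratio of the combination to untreated was 56.0 with an exact counting interval of 18.9 to 274. CD74, the invariant chain, had 67, 322, 133 and 393 reads, HLA-DPA1 had 73, 247, 128 and 394, and HLA-DQB1 had 3, 24, 6 and 38. For these genes the palbociclib library was above the indisulam library and the combination was highest, which was not the order of any class I heavy chain. For CD74 and HLA-DQB1 the counting intervals of the combination and palbociclib libraries overlapped. CD74 had 27.4 CPM with the combination and 25.4 with palbociclib, and HLA-DQB1 had 2.65 and 1.89. HLA-DPB1 had 4, 19, 14 and 44 reads. HLA-DRB1 had 0, 4, 2 and 43 reads and HLA-DQA1 had 0, 0, 1 and 9. HLA-DMA differed from the rest, with 132, 231, 49 and 79 reads, and HLA-DMB had at most 5. Only 6 of the 9 passed the filter, several through the libraries in which they were high, so no count over the list is given as support.

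Of the markers of the line, VIM had 36565 to 57726 reads, CD44 9628 to 12680, KRT8 5283 to 9602 and KRT18 2038 to 3573. ESR1 at 4 to 16 reads and PGR at 0 to 3 reads were near absent, whereas ERBB2, low by definition in a triple-negative line, had 1628 to 1831 reads, 110 to 143 CPM, and was not absent. Of 5 leukocyte markers, CD3E had 0 reads in every library. In the untreated, palbociclib, indisulam and combination libraries, ITGAX had 18, 38, 67 and 90 reads and CSF1R had 3, 3, 12 and 17, so both were highest in the combination library, as HLA-DRA and CD74 were. CD14 had 116, 69, 66 and 66 reads in the same order, and PTPRC had 153 to 292 reads and was highest in the indisulam library. The sum of the 5 markers was 23.1 CPM in untreated cells, 21.2 under palbociclib, 26.1 under indisulam and 23.2 under both drugs, and their part in the class I and class II levels was not tested. In RNA from a whole culture, more RNA per cell and more cells with the RNA cannot be told apart.

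Of the 9 genes, 7 lie in the MHC region of chromosome 6, between HLA-F and TAPBP, where 113 genes were tested. The median of the other 106 genes was -0.21 on the log2 scale for palbociclib, -0.08 for indisulam and -0.33 for both drugs, against -0.02, 0.06 and 0.05 over all tested genes. Of these neighbours, 16.0% were called with palbociclib, 14.2% with indisulam and 30.2% with the combination. The shares over all tested genes were 10.7%, 15.1% and 23.5% in the same order. With palbociclib all 7 members were above the median of their neighbours, HLA-E at -0.19 being the nearest to it, and that median was below the one of all genes. TAP2 and TAP1 lie close together in this region and differed in sign in all 3 treated libraries.

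**Figure D5:**
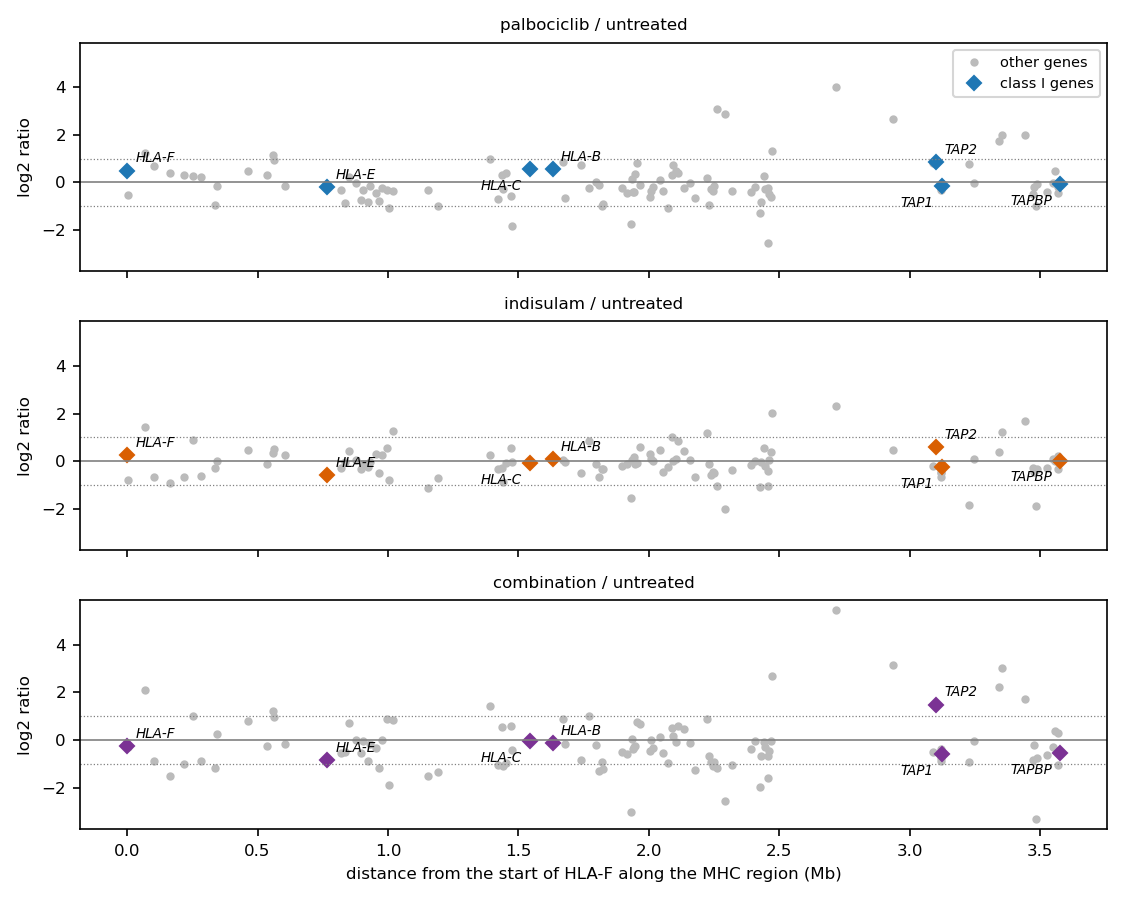
Log2 ratio to untreated of the tested genes of the MHC region by distance from the start of HLA-F in Mb, for the palbociclib, indisulam and combination libraries, with dotted lines at 2-fold. The 7 class I genes are diamonds and the other 106 genes grey points. TAP2 at 1.48 is the only diamond outside the dotted lines, in the combination panel, and the highest grey point of each panel is HLA-DRA.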

How the data were processed

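The data are 4 libraries of SUM159 cells, 1 per condition, grouped by the treatment in the labels. The authors deposited raw counts, 1 per Ensembl gene, with no normalization. The submitters' processing notes name TopHat2 2.1, HTSeq and GRCh38, and the annotation release is not given in the sources used here. Gene totals were 12555908 to 16712174 reads, and 3 reads corresponded to 0.180 to 0.239 CPM. Tallies of reads that were unassigned, ambiguous or not uniquely placed were kept apart.

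Counts were divided by the library total and multiplied by the mean total, a pseudocount of 1 was added, and log2 ratios were given 95% Poisson intervals (Python 3.11.15, numpy 2.4.6, scipy 1.17.1). Genes with a mean of at least 1 CPM were tested, and a call needed 2-fold and an interval without 0. Levels per length used the union of GENCODE release 44 exons. No p-value was computed, for want of replicates. Alternatives were TMM and upper-quartile factors (edgeR 4.0.16), size factors (DESeq2 1.42.0), a pseudocount of 5, other filters and a 1.5-fold threshold. The ratios were checked on simulated counts.

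The members and the lists were chosen with earlier results of these data known. All 9 members were named, and from each list the genes called in any of 5 comparisons, up to 4 by the largest ratio to untreated. SOCS1, MICB, HLA-G, HLA-DPA1, HLA-DMA, HLA-DRB1, HLA-DQA1, HLA-DMB, PSMB8 and PSMB9 were named beyond that rule, after their values were seen. A gene of 1 list and a marker are not reported here.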

Additional observations from a re-analysis of the deposited data

Results flagged for a closer look

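In 3 class I genes, each drug had opposite directions without and with the other drug. The difference between both ratios, which is the same number for palbociclib and for indisulam, was -0.76 on the log2 scale for HLA-B, -0.99 for HLA-F and -0.65 for B2M. With either drug alone these 3 genes were above untreated, and with the second drug added they were below the level of the first drug. With indisulam alone all 3 ratios were within 1 ceiling SD of 0. That of HLA-B was not clear of 0 with the other scalings. When palbociclib was added to indisulam, HLA-B and B2M were within 1 ceiling SD of 0 too. Each side is 1 library against 1 library, and the difference was not tested.

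In 3 genes of the surrounding lists, 1 drug had such a turn. TAPBPL was above untreated with indisulam alone and below the palbociclib level when indisulam was added to palbociclib, with a difference of -1.47. NFKB2 was above untreated with palbociclib alone and below the indisulam level when palbociclib was added to indisulam, with a difference of -0.52. STAT2 had the same turn as NFKB2, with a difference of -0.58. These differences were not tested either.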

How the results depend on the processing

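With 1 library per condition no library could be left out. No paired analysis was possible because each condition has a single library and the only replicate number is 1. Calls of the 9 members at 2-fold were the same under TMM, DESeq2 and upper-quartile factors, a pseudocount of 5 and other filters. Of 50 calls of list genes, compared after seeing the data, 2 were lost with each of the 3 other scalings (SOCS1 with indisulam at 0.93 to 0.94 and MICB with the combination at 0.93 to 0.98), 2 were lost with the pseudocount of 5 (SOCS1 at 0.95 and CIITA with the combination at 1.00, just under 2-fold), and 0 changed sign. At 1.5-fold, 1 member was called higher with palbociclib (all tested genes 12.6% higher and 12.2% lower), 1 higher and 1 lower with indisulam (17.2% and 14.2%), TAP2 higher and 1 lower with the combination against untreated (23.1% and 19.4%), 1 higher and 4 lower in the combination against palbociclib (18.4% and 14.5%), and 1 higher against indisulam (12.0% and 10.2%). The median of the members for indisulam was 0.020 with TMM, 0.027 with DESeq2 and 0.021 with upper-quartile factors. With TMM it was -0.21 for the combination against untreated and -0.56 against palbociclib. Without TAP2, a choice made after seeing the data, it was 0.24 for palbociclib and -0.55 for the combination against palbociclib. Also chosen after seeing the data, the members with an interval above 0 in the combination against untreated were 1 with TMM and 1 with DESeq2, and against indisulam 2 with upper-quartile factors. Scalings moved the median of all genes by less than 0.1. Of 45 ratios, 3 changed sign with TMM, 2 with DESeq2 and 2 with upper-quartile factors (NLRC5, TAPBP and B2M, each near 0).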
